A study of Mus musculus with 18 samples.

Results

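The replication-dependent histone genes described here are the mouse genes whose symbols begin with Hist1h, Hist2h, Hist3h or Hist4h and that reached 1 TPM in at least 2 of 18 RNA-seq libraries. TPM is a transcript level per unit of transcript length, scaled so that each library sums to 1000000. The files listed 68 genes with such a symbol, of which 51 reached the minimum and 17 did not. A gene could reach it through the libraries where it was high, so the counts below are counts of these 51 genes and not of every histone gene. Just inside the minimum stood Hist1h4c, whose highest libraries had 1.14 and 1.04 TPM, and just outside it Hist2h2ac, whose highest libraries had 1.31 and 0.906 TPM. The 51 genes comprise 5 of the linker histone H1, 16 of H2A, 12 of H2B, 9 of H3 and 9 of H4. Of these, 40 lie on chromosome 13, 7 on chromosome 3, 3 on chromosome 11 and 1 on chromosome 6. GENCODE annotates 48 as protein coding and the other three, Hist1h2aj, Hist1h2al and Hist3h2bb-ps, as pseudogenes.

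The libraries came from mouse cochlear cells in 9 groups of 2. Sorted LCP D10 and sorted LCP D0 were cells sorted from cultures at differentiation days 10 and 0, and LCP D0, D2, D4 and D10 were unsorted cultures, labelled primary cochlear organoids, at days 0, 2, 4 and 10. Atoh1 sort P2, Lgr5 sort P2 and Sox2 sort P2 were cells sorted from the sensory epithelium at postnatal day 2. The design text speaks of LCPs that were expanded and differentiated, and of native hair cells set against native supporting cells. The labels neither spell out LCP nor name the reporter or surface marker used for any sort, so what the sorted LCP cells were selected for is not known here. No strain or genotype is given for a group. A treatment text attached to all 18 samples, on tamoxifen for mothers of pups carrying Sox2-CreER and an exon 3 flox allele of beta-catenin, and for their littermates without Cre, names conditions that no title mentions. Both ears of a single pup made up each sample, according to the same labels. Labels that share a replicate number share extraction days among the unsorted cultures and among the sorted cultures, and in replicate 2 across both. Separate donors or cultures are not stated, so the p-values measure the spread between these libraries only.

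Replication-dependent histone genes supply the bulk of the histones that package newly copied DNA, and they are transcribed mainly while a cell is in S phase. Their mRNAs are known for ending in a short stem-loop instead of a poly(A) tail, and the stem-loop binding protein SLBP carries them through processing and translation. Replacement histones such as H3.3, made from polyadenylated mRNA, are used outside replication. In the cochlea, hair cells and supporting cells leave the cell cycle before birth in the mouse, whereas organoid cultures of cochlear cells are expanded by division before they are differentiated.

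The cDNA kit named in the labels, SMARTer V4, primes on poly(A), so histone mRNAs that end at the stem-loop are expected to be seen poorly and the values below are levels of what such priming recovered. The annotated ends of the most abundant genes differ, and the stem-loops of 4 of them are shown because their transcripts go on past it to different extents. Each is read from the GENCODE M21 transcript, sense strand, as DNA letters, with the stem-loop in capitals.
Hist1h2ap: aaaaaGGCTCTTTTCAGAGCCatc
Hist2h2aa2: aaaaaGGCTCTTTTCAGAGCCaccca
Hist3h2ba: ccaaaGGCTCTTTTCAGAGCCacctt
Hist3h2a: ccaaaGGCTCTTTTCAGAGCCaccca
The 16 capitals are the same in all 4. The annotated transcript of Hist1h2ap, 482 bases long, stops 3 bases after the stem-loop, and that of Hist2h2aa2, 528 bases long, stops 35 bases after it. The transcript of Hist3h2ba runs on for 169 bases and that of Hist3h2a for 1643 bases, and both hold a poly(A) signal, AATAAA or ATTAAA, in their last 50 bases. A stem-loop of this kind stood in an annotated transcript of 31 of the 51 genes, and a poly(A) signal in the last 50 bases of 11. Many copies are near identical: in 23 genes at least 50% of the 75-base windows, the read length, also occur in another gene, and in 28 genes fewer do. The split of reads among such copies is uncertain, and it touches Hist1h2ap (92.7% of windows shared, all with Hist1h2ao), Hist1h2aj (92.5%) and Hist2h2aa2 and Hist2h2aa1 (both 100%, with the overlapping Gm20632 and Gm20633) more than Hist3h2a (30.7%), Hist3h2ba (13.9%), Hist1h4d (3.67%) and Hist1h1b (0%).

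Libraries of a group correlated at Pearson r of 0.903 to 0.945 over log2(TPM + 1) of all genes tested, and 14381 to 16713 genes per library reached 1 TPM. The read depth behind the TPM values is not known, so no counting interval can be given. Summed TPM of 9 hair cell markers was 5198 and 4122 in sorted LCP D10 and 19.3 and 5.62 in sorted LCP D0. The same sum was 583 and 2420 in LCP D10, against 33.8 and 38.7 in LCP D0, so replicate 2 of LCP D10 had the higher hair cell signal. Among native cells it was 1248 and 1651 in the Atoh1 sort, 486 and 853 in the Lgr5 sort and 762 and 827 in the Sox2 sort, so hair cell markers were present in all 6 native libraries.

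The level of histone mRNA was set by few genes. Averaged over the 18 libraries, 11 genes stood at 10 TPM or more, 15 between 1 and 10 TPM, and 25 below 1 TPM. The leading copies were Hist1h2ap with a mean of 232.0 TPM and Hist2h2aa2 with 54.1 TPM for H2A, Hist3h2ba with 186 TPM and Hist1h2bc with 44.0 TPM for H2B, and Hist1h1c with 27.0 TPM and Hist1h1e with 12.4 TPM for H1. For H4 they were Hist1h4d with 25.4 TPM and Hist1h4k with 4.37 TPM, and for H3 only Hist1h3i with 1.04 TPM and Hist2h3b with 0.706 TPM. The H3 genes were thus listed far below the H2A and H2B genes on this per-length scale.

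Which genes made up the histone mRNA differed from group to group. Hist1h2ap and the pseudogene Hist1h2aj, both on chromosome 13, together gave 62.7% to 78.3% of the summed TPM of the 51 genes in the 4 day 0 libraries of both kinds. They gave 52.0% and 77.1% in LCP D2, 4.01% to 38.8% in LCP D4, 1.04% to 2.49% in the 4 day 10 libraries and 4.97% to 14.1% in the 6 native libraries. Hist3h2ba, Hist3h2a and Hist2h2aa2, on chromosomes 11 and 3, ran the other way. Their share was 3.46% to 9.36% at day 0, 4.495% and 17.9% in LCP D2, 26.9% to 74.2% in LCP D4, 32.6% to 81.8% at day 10 and 35.0% to 64.7% in native cells. The ranges at day 0 and day 10 did not overlap for either set. This is a description, because the sets were put together with these values known and shares of 1 total depend on each other. Hist3h2ba had 52.7 TPM in replicate 1 of LCP D10, against 37.7 and 57.5 TPM in LCP D0. Its share there was 11.65%, against 2.53% and 7.53% in LCP D0.

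**Figure D1:**
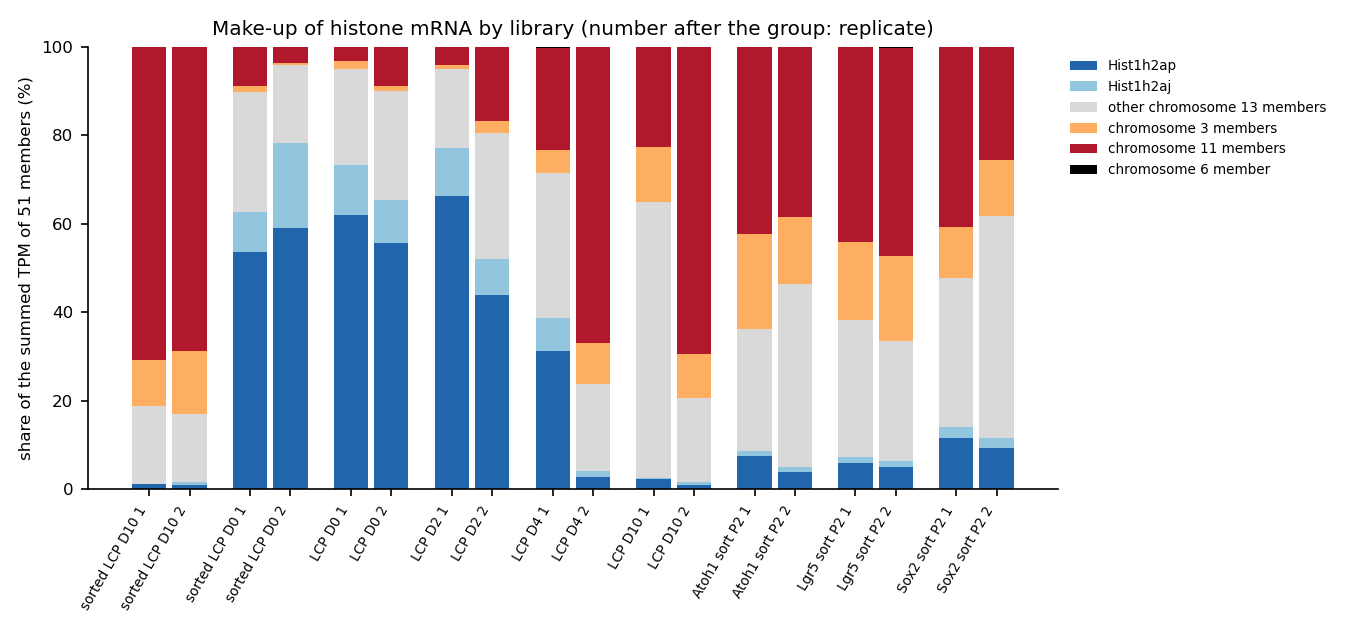
Share of the summed TPM of the 51 histone genes (vertical axis, percent) that came from Hist1h2ap, Hist1h2aj, the other chromosome 13 genes and the genes of chromosomes 3, 11 and 6, with a bar for each of the 18 libraries. The blue and light blue part, Hist1h2ap and Hist1h2aj, is 62.7% to 78.3% of the bar in the day 0 libraries and 1.04% to 2.49% in the day 10 libraries, and replicate 1 of LCP D10 differs from replicate 2 in its large grey part.

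The summed TPM of the 51 genes was 993 and 1013 in sorted LCP D10, against 1043 and 2091 in sorted LCP D0. In the unsorted cultures it was 1488 and 763 in LCP D0, 574 and 572 in LCP D2, 236 and 265 in LCP D4, and 452 and 529.5 in LCP D10. In native cells it was 672 and 856 in the Atoh1 sort, 501 and 827 in the Lgr5 sort, and 656 and 583 in the Sox2 sort. The sum of the 51 genes was lowest at day 4 and its day 10 value in sorted cells was close to replicate 1 of sorted LCP D0, while its make-up was not. It leaves out short entries opposite to H2A genes, described below, whose reads cannot be told apart from H2A reads. With them, H2A alone was 4866 and 5961 TPM in sorted LCP D10, against 15960 and 41140 TPM in sorted LCP D0. In LCP D4 it was 2933 and 1494 TPM, against 2442 and 2550 TPM in LCP D10, so those groups overlapped. The number of the 51 genes at 1 TPM or more was 18 in both sorted LCP D10 libraries, against 35 and 40 in sorted LCP D0. It was 29 and 42 in LCP D0, 17 and 27 in LCP D2, 14 and 15 in LCP D4, and 17 and 24 in LCP D10, and it lay between 19 and 26 in native cells.

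In the unsorted cultures the question was how the histone genes changed over the days of differentiation. At day 2 no histone gene passed the test. Each difference below is on the log2(TPM + 1) scale, which understates the change of low genes, and was tested with limma in a single fit of all 18 libraries, with p-values adjusted over 20463 genes by the Benjamini-Hochberg method and a threshold of 0.05. For LCP D2 against LCP D0 limma called 0 of the 51 genes, in a comparison where it called 0.0489% of all genes. At an unadjusted p under 0.05 there were 10 of the 51 (19.6%), all with negative differences, against 4.5% of all genes, and the median difference was -0.63, against -0.02 over all genes tested. Hist1h2ap had 381 and 251 TPM in LCP D2, against 923 and 425 TPM in LCP D0. Its libraries did not overlap, but the spread in both groups was wide and the difference of -1.02 (SE 0.80) had an adjusted p of 1 by limma. The replicate block also called 0 of the 51.

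By day 4, 8 of the 51 genes had fallen and none had risen, in a comparison where 2.29% of all genes were called lower by limma. All 8 lie on chromosome 13, where 39 of 40 genes had a negative difference, and 4 are H2A genes, 3 are H2B genes and 1 is an H1 gene. The median over the 51 was -1.16, against -0.06 over all genes. In bulk samples, fewer cells that make a transcript and less of it in each cell cannot be told apart. Summed TPM of 6 proliferation markers, Mki67, Top2a, Cdk1, Ccnb1, Ccna2 and Birc5, moved with these groups: it was 297 and 376 in LCP D0, 191 and 335 in LCP D2, 24.4 and 17.9 in LCP D4, and 4.19 and 3.04 in LCP D10. None of the 6 was at 0 in any library, and their part in the histone changes was not tested.

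Hist1h2ap, the most abundant histone gene of the cultures at day 0, had 73.8 and 7.41 TPM in LCP D4, against 923 and 425 TPM in LCP D0. Both day 4 libraries lay below both day 0 libraries, but the day 4 libraries also lay far apart from each other. The log2 difference was -4.64 (SE 0.80, adjusted p = 0.00902 by limma). Hist1h2bc, a chromosome 13 H2B gene, had 3.18 and 3.04 TPM in LCP D4, against 59.0 and 23.6 TPM in LCP D0. Its groups were far apart, with a difference of -3.23 (SE 0.73, adjusted p = 0.0335 by limma). Hist1h1b, which encodes linker histone H1.5, had 1.82 and 0.230 TPM in LCP D4, against 14.8 and 16.2 TPM in LCP D0, a difference of -3.15 (SE 0.66, adjusted p = 0.0227 by limma). The other genes that fell were Hist1h2ag (-2.25), Hist1h2an (-1.99), Hist1h2ac (-1.53), Hist1h2bp (-1.26) and Hist1h2bk (-1.07), all with a day 4 mean under 0.3 TPM. Hist1h2bp reached the minimum of 1 TPM through day 0 libraries alone, so its fall is not independent of that filter. Hist2h2aa2 on chromosome 3 had 9.58 and 20.6 TPM in LCP D4, against 6.28 and 2.98 TPM in LCP D0, and the difference of 1.49 missed the threshold (adjusted p = 0.182 by limma). These day 4 calls rested on single libraries. Of LCP D0, leaving out replicate 1 turned the count of 8 into 0 and leaving out replicate 2 into 5; of LCP D4, leaving out replicate 1 gave 5 and replicate 2 gave 1. No gene kept its call in all 4 fits.

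By day 10, 9 of the 51 genes were lower than at day 0 and 3 were higher, in a comparison where limma called 4.34% of all genes lower and 3.05% higher. The 9 that fell all lie on chromosome 13, and the 3 that rose lie on chromosome 3 (Hist2h2aa1, Hist2h2aa2) and chromosome 11 (Hist3h2a). On chromosome 13, 36 of 40 genes had a negative difference, and on chromosome 11 all 3 had a positive one. Chromosome 3 was mixed, with 3 of 7 genes positive and 4 negative. The median over the 51 was -0.80, against -0.08 over all genes. With libraries scaled by the median of ratios the calls were 4 higher and 7 lower. LCP D4 against LCP D0 shares the day 0 libraries with this comparison, and 6 of the 8 genes lower at day 4 were also lower at day 10. No matching share of all genes was taken, so nothing is concluded from that count.

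Hist1h2ap (chr13:21833026-21833507, minus strand, GENCODE M21 on mm10), had 10.6 and 4.66 TPM in LCP D10, against 923 and 425 TPM in LCP D0. The groups were far apart, with a difference of -6.28 (SE 0.80, adjusted p = 0.000939 by limma), and the difference was -6.23 within replicate 2, whose libraries share their extraction and sequencing dates. Hist1h2aj, annotated as an unprocessed pseudogene (chr13:21721457-21721808, minus strand), had 0.712 and 3.41 TPM in LCP D10, against 168 and 74.7 TPM in LCP D0. It fell by 5.36 (SE 0.98, adjusted p = 0.00696 by limma), and within replicate 2 by 4.10. Hist1h2ae, an H2A gene, had 0.851 and 0.670 TPM in LCP D10, against 33.1 and 15.8 TPM in LCP D0, a difference of -3.77 (SE 0.79, adjusted p = 0.0140 by limma). Hist1h1b had 2.85 and 0.150 TPM in LCP D10, against 14.8 and 16.2 TPM in LCP D0. The day 10 libraries lay apart from each other but below both day 0 libraries, and the difference was -2.97 (SE 0.66, adjusted p = 0.0181 by limma). The remaining genes that fell were Hist1h2an (-2.24, listed at 0 in both LCP D10 libraries), Hist1h2ag (-2.08), Hist1h2ak (-1.44), Hist1h2bk (-1.07) and Hist1h2bp (-1.06). The last of these reached the minimum of 1 TPM through day 0 libraries alone, so its fall is not independent of that filter.

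Hist2h2aa2 (chr3:96239749-96240276, minus strand) had 48.5 and 44.0 TPM in LCP D10, against 6.28 and 2.98 TPM in LCP D0. The replicates were close to each other at day 10 and the groups did not overlap, with a difference of 3.13 (SE 0.53, adjusted p = 0.00453 by limma) and 3.50 within replicate 2. Its near copy Hist2h2aa1 had 2.86 and 2.52 TPM in LCP D10 and was listed at 0 in both LCP D0 libraries, a fitted difference of 1.88 (SE 0.34, adjusted p = 0.00620 by limma) that depends on the pseudocount. Hist3h2a (chr11:58954685-58956830, plus strand), the H2A gene of the chromosome 11 cluster, had 46.2 and 54.3 TPM in LCP D10, against 7.54 and 10.1 TPM in LCP D0. Its groups did not overlap, and the difference of 2.39 (SE 0.65) only just passed the threshold (adjusted p = 0.0452 by limma). Its neighbour Hist3h2ba (chr11:58948920-58949533, plus strand), an H2B gene, had 52.7 and 311 TPM in LCP D10, against 37.7 and 57.5 TPM in LCP D0. Replicate 1 of LCP D10 lay within the day 0 range and replicate 2 far above it, and the difference of 1.45 (SE 0.82) did not pass (adjusted p = 0.362 by limma).

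The abundant genes that did not pass at day 10 differed between the replicates of LCP D10. Hist1h1c, which encodes linker histone H1.2, had 146.5 and 9.42 TPM in LCP D10, against 20.9 and 21.5 TPM in LCP D0. Hist1h2bc had 40.9 and 5.83 TPM in LCP D10, against 59.0 and 23.6 TPM in LCP D0. Replicate 1 was the high library for both, and the differences were 0.82 (adjusted p = 0.767) and -1.18 (adjusted p = 0.407) by limma. The pseudogene Hist1h2al had 0.768 and 53.7 TPM in LCP D10, against 1.32 and 5.07 TPM in LCP D0, with replicate 2 the high library. Hist1h4d, the leading H4 gene, had 24.2 and 12.4 TPM in LCP D10, against 75.3 and 41.2 TPM in LCP D0. Its groups did not overlap, yet its difference of -1.62 (SE 0.79) had an adjusted p of 0.277 by limma. The count of 12 called genes was 2 when replicate 1 of LCP D0 was left out and 5 when replicate 2 of LCP D10 was, and Hist1h2ap and Hist2h2aa2 kept their calls in all 4 fits without a library.

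**Figure D2:**
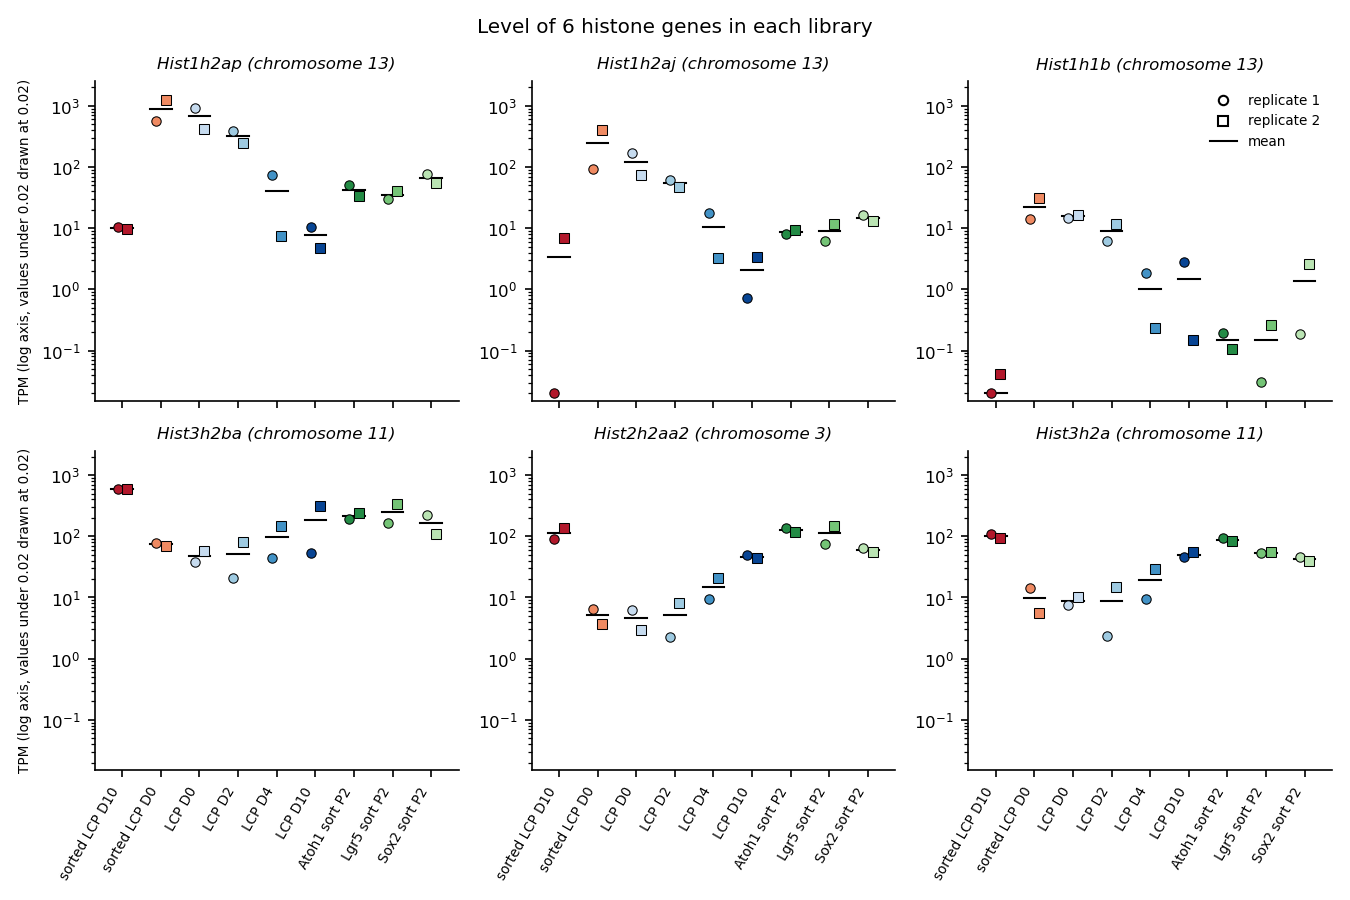
TPM of Hist1h2ap, Hist1h2aj, Hist1h1b, Hist3h2ba, Hist2h2aa2 and Hist3h2a in each of the 18 libraries (log axis, values under 0.02 drawn at 0.02; circles replicate 1, squares replicate 2, line the mean). Hist1h2ap, Hist1h2aj and Hist1h1b, in the upper panels, are lower at day 10 than at day 0 in both sorted and unsorted LCP, the genes of the lower panels are higher in sorted LCP D10 than in sorted LCP D0, and the day 10 replicates of unsorted Hist3h2ba, 52.7 and 311 TPM, lie apart.

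Between neighbouring days of the unsorted series few genes of any kind were called. LCP D4 against LCP D2 gave 0 of the 51, where limma called 0.508% of all genes, with 6 of the 51 (11.8%) at an unadjusted p under 0.05, against 6.11% of all genes. Hist1h2ap, with 73.8 and 7.41 TPM in LCP D4 against 381 and 251 TPM in LCP D2, had a difference of -3.63 (SE 0.80, adjusted p = 0.1001 by limma). Without replicate 1 of LCP D4 the count was 1. LCP D10 against LCP D4 gave 0 of the 51, where limma called 0.0147% of all genes, and 8 of the 51 (15.7%) had an unadjusted p under 0.05, all with positive differences, against 4.58% of all genes. Hist2h2aa2 was among those 8, with 48.5 and 44.0 TPM in LCP D10 against 9.58 and 20.6 TPM in LCP D4 (difference 1.64, SE 0.53, adjusted p = 0.842 by limma). The replicate block gave 0 calls in both comparisons.

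In sorted LCP cells the same comparison of days used libraries that the unsorted comparison did not, and it called more histone genes. Replicate 2 of LCP D0, LCP D10, sorted LCP D0 and sorted LCP D10 shares its extraction and sequencing dates. Whether these came from separate cultures is not stated, so the comparisons may not be independent. Of the 51, 17 fell and 5 rose, in a comparison where limma called 10.7% of all genes lower and 13.3% higher. All 17 that fell lie on chromosome 13, and 3 of the 5 that rose lie on chromosome 11 and 2 on chromosome 3. Not every gene of chromosome 13 went down: 36 of 40 had a negative difference and 4 a positive one. The pseudogene Hist1h2al, on chromosome 13, had 118 and 76.0 TPM in sorted LCP D10, against 9.86 and 6.80 TPM in sorted LCP D0, and was not called. Of its 75-base windows 45.7% also occur in another gene, and 43.4% in Gm20632, which overlaps Hist2h2aa2 on chromosome 3. Its level is therefore uncertain. On chromosome 3, 4 of 7 genes had a positive difference and 3 a negative one. The families of the 17 were 8 H2A, 4 H3, 2 H1, 2 H2B and 1 H4. All 9 genes that fell in the unsorted cultures fell here too, and all 3 that rose there rose here. The matching shares of all genes were not taken, so nothing is concluded from these counts. The median over the 51 was -1.05, against 0.02 over all genes. Proliferation markers summed to 4.60 and 2.84 TPM in sorted LCP D10, against 283 and 393 TPM in sorted LCP D0. Other marker sums moved with the groups as well. For 6 neuron markers the sum was 313 and 218 TPM in sorted LCP D10, against 8.08 and 1.79 TPM in sorted LCP D0, and most of it was Nefl, Nefm and Snap25. For 8 supporting cell markers it was 100.3 and 105 TPM in sorted LCP D10, against 442 and 174.5 TPM in sorted LCP D0. In unsorted cultures the neuron sum was 69.4 and 202 TPM in LCP D10, against 11.4 and 9.71 TPM in LCP D0, and the supporting cell sum 188 and 204 TPM in LCP D10, against 723 and 377 TPM in LCP D0. At 0 stood 1 neuron marker in replicate 2 of sorted LCP D10 and in each LCP D10 library, and 3 neuron markers and 1 supporting cell marker in replicate 2 of sorted LCP D0. The part of these markers in the histone results was not tested.

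Hist1h2ap had 10.4 and 9.73 TPM in sorted LCP D10, against 559.7 and 1237 TPM in sorted LCP D0. It fell by 6.24 (SE 0.80, adjusted p = 0.000342 by limma), and both day 10 libraries were close to each other. Hist1h2aj had 0.000371 and 6.89 TPM in sorted LCP D10, against 94.5 and 399 TPM in sorted LCP D0, a difference of -6.12 (SE 0.98, adjusted p = 0.00113 by limma). The replicates of Hist1h2aj spread widely on both days without overlap of the groups. Hist1h1b was listed at 0 and at 0.0407 TPM in sorted LCP D10, against 14.2 and 31.0 TPM in sorted LCP D0, a difference of -4.44 (SE 0.66, adjusted p = 0.000729 by limma). Hist1h2ae was at 0.447 TPM and listed at 0 in sorted LCP D10, against 10.7 and 30.8 TPM in sorted LCP D0 (difference -4.0, SE 0.79, adjusted p = 0.00376 by limma). Hist1h2ag was listed at 0 in both sorted LCP D10 libraries, against 7.82 and 13.8 TPM in sorted LCP D0, a fitted difference of -3.51 (SE 0.38, adjusted p = 0.000148 by limma). Of these 5 genes, Hist1h2ap and, in replicate 2, Hist1h2aj were above 1 TPM in sorted LCP D10.

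Hist1h4d had 5.15 and 9.12 TPM in sorted LCP D10, against 48.7 and 48.6 TPM in sorted LCP D0, a difference of -2.66 (SE 0.79, adjusted p = 0.0296 by limma). The H3 genes that fell were Hist1h3a (-1.98), Hist1h3i (-1.80), Hist1h3d (-1.39) and Hist1h3c (-1.09), with means of 2.98, 3.49, 1.63 and 1.13 TPM in sorted LCP D0. Hist1h1d, which encodes H1.3, fell by 2.00. The other H2A genes that fell were Hist1h2an (-1.92), Hist1h2af (-1.83), Hist1h2ak (-1.72) and Hist1h2ab (-1.51), and the H2B genes were Hist1h2bk (-1.47) and Hist1h2bp (-1.28). These 11 genes were under 1 TPM in both sorted LCP D10 libraries. Hist1h3a reached the minimum of 1 TPM through the sorted LCP D0 libraries alone, and Hist1h3d, Hist1h2ab and Hist1h2bp through day 0 libraries alone. Their falls are therefore not independent of that filter.

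Hist3h2ba had 592 and 599 TPM in sorted LCP D10, against 76.8 and 70.5 TPM in sorted LCP D0. It was the most abundant histone gene at day 10, its replicates nearly coincided, and its difference was 3.00 (SE 0.82, adjusted p = 0.0197 by limma, with the SE taken from all 9 groups). Hist2h2aa2 had 88.8 and 134 TPM in sorted LCP D10, against 6.58 and 3.65 TPM in sorted LCP D0. It rose by 4.21 (SE 0.53, adjusted p = 0.000286 by limma). Hist3h2a had 108 and 95.2 TPM in sorted LCP D10, against 14.3 and 5.64 TPM in sorted LCP D0, a difference of 3.34 (SE 0.65, adjusted p = 0.00342 by limma). For each of these genes the lowest day 10 library was several times the highest day 0 library. Hist2h2aa1 had 6.40 and 7.39 TPM in sorted LCP D10 and was listed at 0 in both sorted LCP D0 libraries (fitted difference 2.98, adjusted p = 0.000173 by limma). The pseudogene Hist3h2bb-ps had 2.87 and 1.80 TPM in sorted LCP D10, against a listing at 0 and 0.241 TPM in sorted LCP D0 (difference 1.56, adjusted p = 0.0112 by limma). Hist1h2bc had 13.2 and 11.4 TPM in sorted LCP D10, against 38.6 and 64.5 TPM in sorted LCP D0, and its difference of -1.94 (SE 0.73) missed the threshold (adjusted p = 0.0739 by limma). The count of 22 was 13 without replicate 1 of sorted LCP D10. In every fit without a library 13 genes kept their calls, among them Hist1h2ap, Hist1h2aj, Hist1h1b, Hist2h2aa2 and Hist3h2a, but not Hist3h2ba or Hist1h4d.

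**Figure D3:**
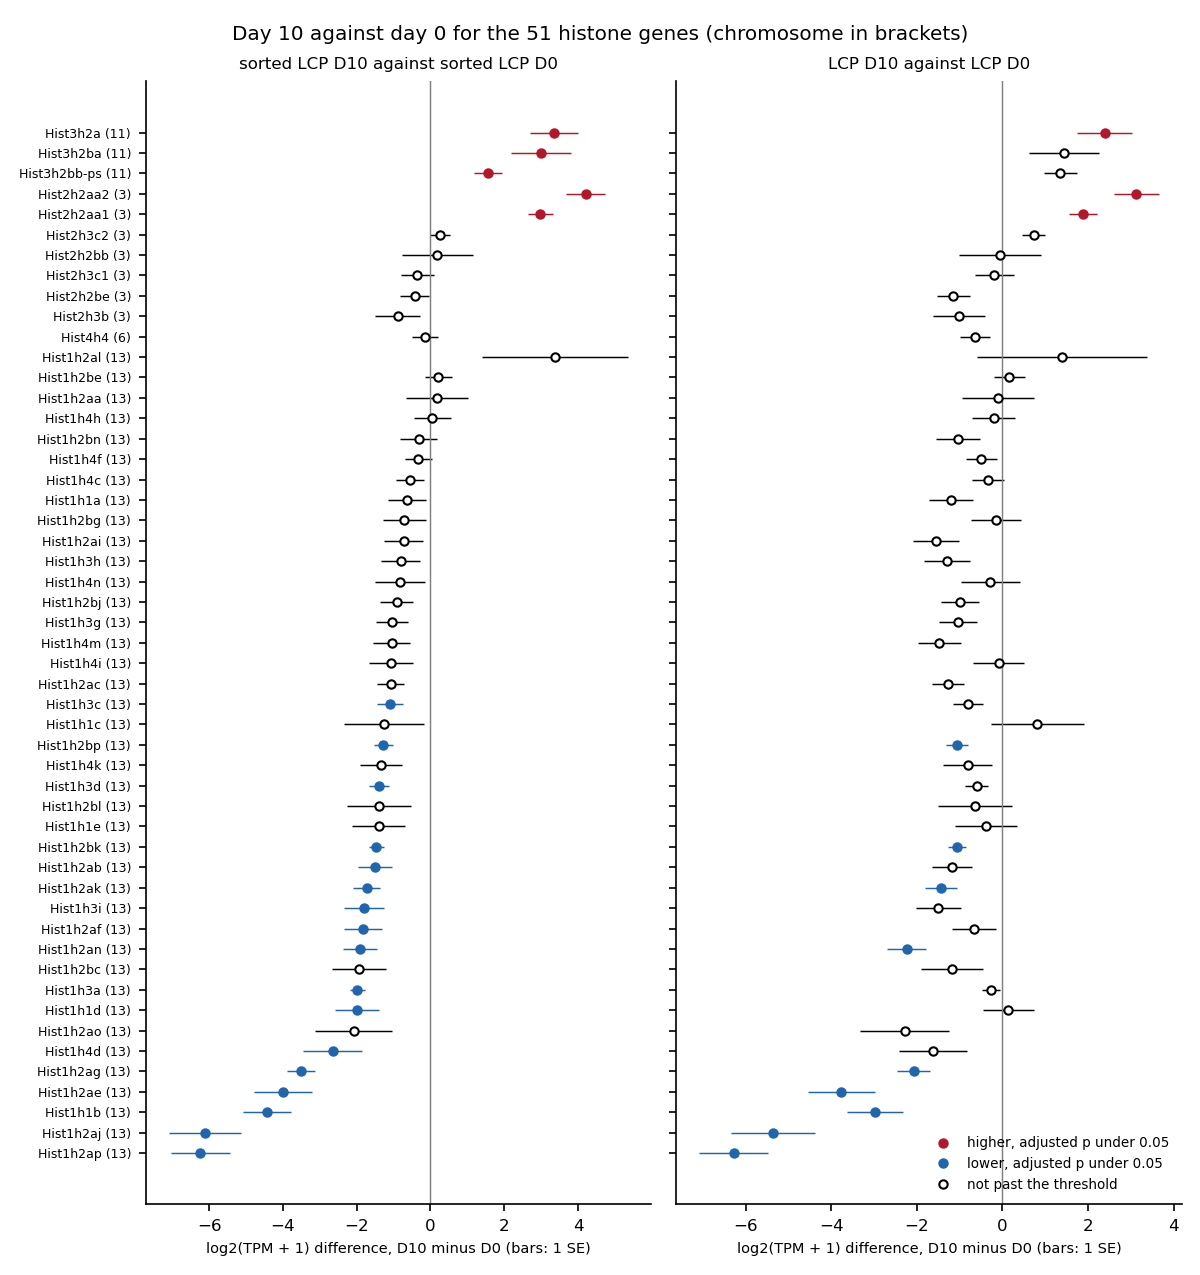
Difference in log2(TPM + 1) between day 10 and day 0 (horizontal axis, bars 1 SE) for each of the 51 histone genes, in sorted LCP on the left and unsorted LCP on the right, with chromosome in brackets and filled points past the adjusted p threshold of limma. Blue points, all on chromosome 13, lie left of 0 and number 17 and 9, and red points, on chromosomes 3 and 11, lie right of 0 and number 5 and 3.

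Whether the change over 10 days differed between sorted and unsorted LCP was tested as the difference between both changes. Of the 51 genes, 1 passed, where limma called 0.205% of all genes. This was Hist1h3a, an H3 gene, with a difference of -1.72 between the changes (SE 0.30, adjusted p = 0.0492 by limma). It was listed at 0 in both sorted LCP D10 libraries, against 2.48 and 3.48 TPM in sorted LCP D0, and it had 0.231 and 0.0903 TPM in LCP D10, against 0.398 and 0.385 TPM in LCP D0. The sorted LCP D0 libraries were the high ones, and Hist1h3a reached the minimum of 1 TPM through them alone. Hist1h2ap showed a difference of 0.04 between the changes (SE 1.14) and Hist3h2ba one of 1.56 (SE 1.16), neither past the threshold (adjusted p of 1 and 0.641 by limma). The call of Hist1h3a was lost without replicate 1 or 2 of LCP D0, replicate 1 of LCP D10, replicate 2 of sorted LCP D0 and replicate 1 or 2 of sorted LCP D10, and 2 genes were called without replicate 2 of LCP D10.

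Sorted cells were also set against unsorted cultures of the same day, where few of these genes passed the test. For sorted LCP D0 against LCP D0 limma called 1 of the 51, higher, where it called 0.0782% of all genes. This too was Hist1h3a, with 2.48 and 3.48 TPM in sorted LCP D0 against 0.398 and 0.385 TPM in LCP D0 (difference 1.51, SE 0.21, adjusted p = 0.0232 by limma). It reached the minimum of 1 TPM only through the sorted LCP D0 libraries, so this call is not independent of that filter. The count was 0 without replicate 1 or 2 of LCP D0 or replicate 2 of sorted LCP D0, and 2 without replicate 1 of sorted LCP D0. For sorted LCP D10 against LCP D10 limma called 0 of the 51, where it called 6.22% of all genes, and 3 of the 51 (5.88%) had an unadjusted p under 0.05, all positive, against 23.7% of all genes. These were Hist3h2ba (592 and 599 TPM in sorted LCP D10, against 52.7 and 311 TPM in LCP D10; adjusted p = 0.128 by limma), Hist2h2aa2 (0.185) and Hist2h2aa1 (0.0748). The libraries of 14 of the 51 genes did not overlap, 6 of them higher and 8 lower in sorted LCP D10. The matching share of all genes was not taken, so nothing is concluded from this count. The summed TPM of the 51 genes, given above, was higher in both sorted LCP D10 libraries than in both LCP D10 libraries. The H2A sum had means of 334.0 TPM in sorted LCP D10 and 140.0 TPM in LCP D10 (difference 1.28, SE 0.45, adjusted p = 0.113 by limma), and the H2B sum 624.5 and 225.5 TPM (difference 1.63, SE 0.63, adjusted p = 0.139 by limma). With 2 libraries a group, these differences were not resolved. The count of called genes was 2 without replicate 2 of LCP D10 and 1 with libraries scaled by the median of ratios.

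The summed level of each family was also tested, with the 5 sums in place of their genes among 20417 features. The H2A sum was 119.7 and 87.0 TPM in LCP D4 and 113 and 167 TPM in LCP D10, against 1166 and 554 TPM in LCP D0. Both falls passed, at -2.97 (SE 0.45, adjusted p = 0.00452 by limma) for day 4 and -2.54 (SE 0.45, adjusted p = 0.00600 by limma) for day 10. In sorted cells it was 333.5 and 334 TPM in sorted LCP D10, against 715 and 1736 TPM in sorted LCP D0, a fall of 1.74 on the log2 scale (SE 0.45, adjusted p = 0.0158 by limma). The sorted and unsorted changes of the H2A sum differed by 0.81 (SE 0.64, adjusted p = 0.662 by limma), so their sizes were not shown to differ. The H2B sum went up in sorted cells, with a mean of 624.5 TPM in sorted LCP D10, against 156 TPM in sorted LCP D0 (difference 2.00, SE 0.63, adjusted p = 0.0373 by limma). The H3 sum fell there by 3.04 (SE 0.52, adjusted p = 0.00171 by limma) and the H4 sum by 2.26 (SE 0.69, adjusted p = 0.0336 by limma), with means of 0.681 and 13.8 TPM in sorted LCP D10, against 12.9 and 68.9 TPM in sorted LCP D0. The higher H2B sum rested on a single gene. Hist3h2ba made up 592 and 599 TPM of it in sorted LCP D10, against 76.8 and 70.5 TPM in sorted LCP D0. The 11 other H2B genes, a sum taken after the values were seen and not tested, had 33.0 and 25.2 TPM in sorted LCP D10, against 67.5 and 97.2 TPM in sorted LCP D0. Of the 12 H2B genes 8 had a negative difference, the median was -0.57, and 2 rose and 2 fell. The H1 sum did not pass (-1.78, adjusted p = 0.187 by limma). In unsorted LCP D10 against LCP D0 the H2A sum alone passed, and in LCP D4 against LCP D0 the H3 sum also did (-2.29, adjusted p = 0.0346 by limma). The H3 fall in sorted cells kept its call in all fits without a library. The H2A call was lost at day 4 without replicate 1 of LCP D0 (adjusted p = 0.051) or replicate 2 of LCP D4 (0.0561), at day 10 without replicate 1 of LCP D0 (0.0696), and in sorted cells without replicate 2 of sorted LCP D0 (0.138), replicate 1 (0.0806) or replicate 2 (0.0674) of sorted LCP D10, all by limma. The H2B and H4 calls in sorted cells were lost without any 1 of the 4 sorted LCP libraries, and the day 4 call of H3 without replicate 1 of LCP D0 or replicate 2 of LCP D4.

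**Figure D4:**
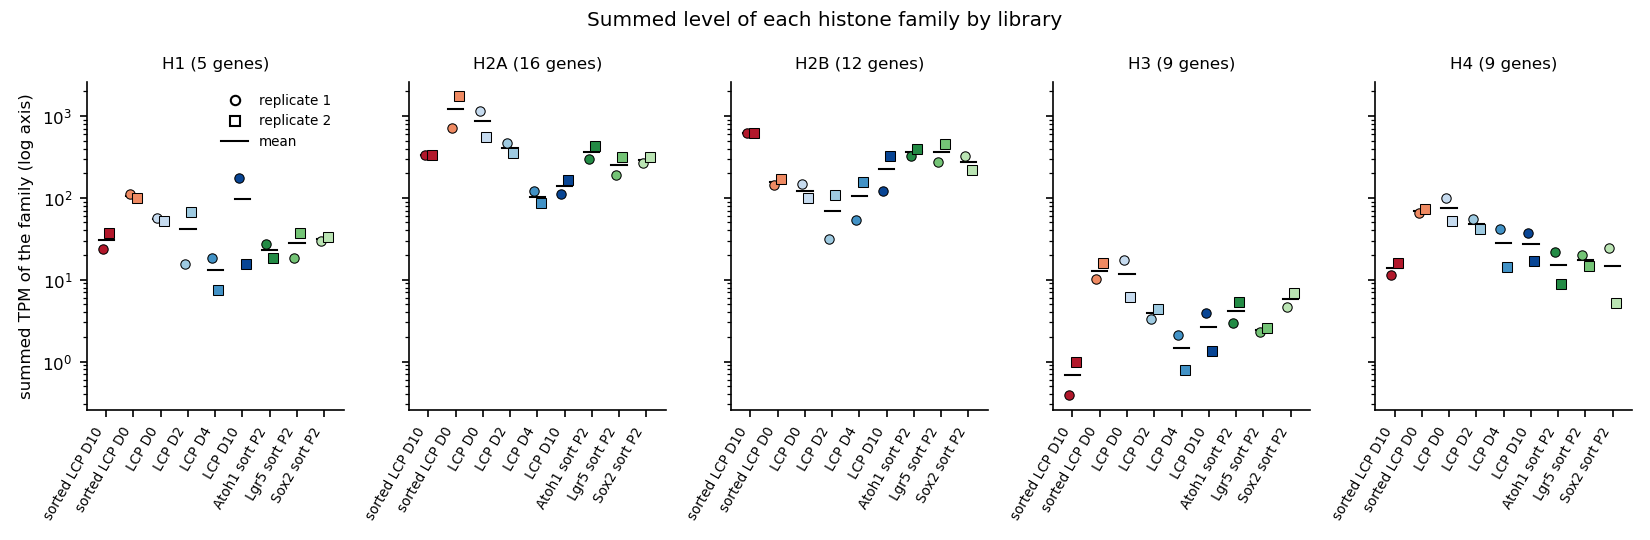
Summed TPM of the histone genes of each family (log axis) in each of the 18 libraries, with circles for replicate 1, squares for replicate 2 and a line for the mean. The H2A sum is 334 TPM in both sorted LCP D10 libraries, below the 715 and 1736 TPM of sorted LCP D0, while the H2B sum averages 625 TPM in sorted LCP D10, above 156 TPM in sorted LCP D0.

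Day 0 cultures were set against native Lgr5-sorted cells to ask how expanded progenitors differ from such cells of the neonatal cochlea; Lgr5 is a receptor gene that marks a subset of supporting cells. Of the 51 genes, 11 were higher in sorted LCP D0 and 3 were lower, in a comparison where limma called 3.85% of all genes higher and 7.11% lower. The 11 all lie on chromosome 13, and the 3 are Hist2h2aa1 and Hist2h2aa2 on chromosome 3 and Hist3h2a on chromosome 11. The median over the 51 was 0.76, against -0.09 over all genes. Sorted LCP D0 is also the day 0 group of the sorted time comparison, so both rest on the same 2 libraries.

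Hist1h2ap had 559.7 and 1237 TPM in sorted LCP D0, against 29.6 and 40.5 TPM in Lgr5-sorted cells, a difference of 4.55 (SE 0.80, adjusted p = 0.00331 by limma). Hist1h2aj had 94.5 and 399 TPM in sorted LCP D0, against 6.22 and 11.6 TPM in Lgr5-sorted cells, a difference of 4.36 (SE 0.98, adjusted p = 0.0137 by limma). Hist1h1b had 14.2 and 31.0 TPM in sorted LCP D0, against 0.0309 and 0.265 TPM in Lgr5-sorted cells, a difference of 4.27 (SE 0.66, adjusted p = 0.00149 by limma). In all 3 genes both culture libraries lay well above both native libraries. The other genes that were higher were Hist1h2ag (3.15), Hist1h2ae (2.91), Hist1h3a (1.93), Hist1h2an (1.92), Hist1h2af (1.83), Hist1h2bk (1.49), Hist1h3d (1.39) and Hist1h2bp (1.28). Of these, Hist1h3a reached the minimum of 1 TPM through the sorted LCP D0 libraries alone, and Hist1h3d and Hist1h2bp through day 0 libraries alone. Their calls are therefore not independent of that filter. Hist2h2aa2 had 6.58 and 3.65 TPM in sorted LCP D0, against 74.9 and 148 TPM in Lgr5-sorted cells, a difference of -4.16 (SE 0.53, adjusted p = 0.000448 by limma). Hist3h2a had 14.3 and 5.64 TPM in sorted LCP D0, against 52.7 and 55.6 TPM in Lgr5-sorted cells (difference -2.45, SE 0.65, adjusted p = 0.0307 by limma), and Hist2h2aa1 was listed at 0 in both sorted LCP D0 libraries, against 4.86 and 4.66 TPM in Lgr5-sorted cells. Hist3h2ba had 76.8 and 70.5 TPM in sorted LCP D0, against 167 and 331 TPM in Lgr5-sorted cells, without overlap but not past the threshold (difference -1.66, SE 0.82, adjusted p = 0.255 by limma). The H2A sum was higher by 2.19 (adjusted p = 0.00845 by limma) and the H3 sum by 1.99 (adjusted p = 0.0295 by limma) in sorted LCP D0. The count of 14 was 9 without replicate 2 of sorted LCP D0 and 9 without replicate 1 of Lgr5-sorted cells, and 8 genes kept their calls in every fit without a library. The call of the H2A sum was lost without replicate 2 of sorted LCP D0 (adjusted p = 0.0816 by limma) or replicate 1 of the Lgr5 sort, and that of the H3 sum without either of these or replicate 2 of the Lgr5 sort.

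Native and cultured libraries also differed in markers of other cells. Summed TPM of 6 mesenchyme markers was 46.5 to 145.5 in the 6 native libraries, against 0.514 to 12.5 in the 12 cultured ones. For 6 glial markers it was 30.6 to 901.5 in native libraries, against 16.4 to 33.8 in cultured ones, and for 6 erythroid markers 1.37 to 280.9, against 0.115 to 5.28. No mesenchyme or glial marker was at 0 in a native library, and 1 to 4 of the 6 erythroid markers were at 0 there. Proliferation markers summed to 283 and 393 TPM in sorted LCP D0, against 5.55 and 6.67 TPM in Lgr5-sorted cells. The part of these cells and of proliferation in the native comparisons was not tested.

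Day 10 cells were set against the native Atoh1 sort to ask how close culture-made cells come to native ones; Atoh1 is a hair cell transcription factor. Of the 51 genes 2 were called, where limma called 11.8% of all genes, a share above that of the histone genes. Hist2h2aa1 had 6.40 and 7.39 TPM in sorted LCP D10, against 1.15 and 0.000184 TPM in Atoh1-sorted cells, a difference of 2.43 (SE 0.34, adjusted p = 0.000891 by limma). Hist1h2bc had 13.2 and 11.4 TPM in sorted LCP D10, against 85.3 and 95.1 TPM in Atoh1-sorted cells, a difference of -2.78 (SE 0.73, adjusted p = 0.0293 by limma). Replicates of Hist1h2bc were close to each other in both groups, and its 6 native values, 71.9 to 95.1 TPM, all exceeded its 12 cultured values. Hist1h2ap had 10.4 and 9.73 TPM in sorted LCP D10, against 50.2 and 33.2 TPM in Atoh1-sorted cells, a difference of -1.92 that did not pass (SE 0.80, adjusted p = 0.149 by limma). Hist3h2ba had 592 and 599 TPM in sorted LCP D10, against 189.8 and 242 TPM in Atoh1-sorted cells, a difference of 1.47 that did not pass either (SE 0.82, adjusted p = 0.285 by limma). Hist2h2aa2 and Hist3h2a differed by -0.22 (SE 0.53) and 0.21 (SE 0.65). The call of Hist1h2bc was lost without any of the 4 libraries, which leaves 1 gene called, and that of Hist2h2aa1 was kept.

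Among native cells few histone genes passed the test between sorts. Setting Atoh1-sorted cells against the average of Lgr5-sorted and Sox2-sorted ones, limma called 0 of the 51, where it called 0.821% of all genes; 5 of the 51 (9.8%) had an unadjusted p under 0.05, against 12% of all genes, and 1 was called without replicate 1 of the Atoh1 sort. Hist3h2a had 92.1 and 83.2 TPM in Atoh1-sorted cells, against 52.7 and 55.6 TPM in Lgr5-sorted and 46.4 and 38.9 TPM in Sox2-sorted cells. Its native groups did not overlap, and its difference of 0.86 (SE 0.56) had an adjusted p of 0.610 by limma. Hist1h2bl, an H2B gene, had 34.8 and 39.3 TPM in Atoh1-sorted cells, against 1.36 and 18.1 TPM in Lgr5-sorted and 17.9 and 15.5 TPM in Sox2-sorted cells (difference 1.80, SE 0.75, adjusted p = 0.366 by limma). For the Lgr5 sort against the Sox2 sort limma called 1 of the 51, where it called 0.557% of all genes. Hist2h2aa1 had 4.86 and 4.66 TPM in Lgr5-sorted cells, against 0.622 and 0.454 TPM in Sox2-sorted cells (difference 1.91, SE 0.34, adjusted p = 0.0299 by limma). All its windows also occur in the overlapping Gm20633, itself at 0 to 1.28 TPM over the 18 libraries. Hist2h2aa1 also shares sequence with the far more abundant Hist2h2aa2, so its level is uncertain. Its near copy Hist2h2aa2 had 74.9 and 148 TPM in Lgr5-sorted cells, against 64.1 and 55.2 TPM in Sox2-sorted cells. The count was 0 without replicate 1 or 2 of the Lgr5 sort or replicate 2 of the Sox2 sort, and 2 without replicate 1 of the Sox2 sort. Hist1h2ap had 75.8 and 54.5 TPM in Sox2-sorted cells, the highest among native cells, and proliferation markers were also highest there (32.2 and 25.5 TPM, against 5.55 to 19.0 TPM in the other 4 native libraries).

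The files also list short entries on the strand opposite to histone genes, and some of these carried far higher TPM than the histone genes themselves. GENCODE M21 annotates 19 entries as miRNA of which at least 50% of the 75-base windows match a member gene on the opposite strand, and 10 of them reached 1 TPM in at least 2 libraries. SMARTer V4 does not mark strand, so reads of an H2A mRNA and of an entry opposite to it cannot be told apart. A pair of such entries is shown, from the GENCODE M21 transcripts on mm10, because they overlap in sequence, lie opposite H2A genes that changed in opposite directions, and differ at a single base of the 99 that align, in capitals.
Gm44346: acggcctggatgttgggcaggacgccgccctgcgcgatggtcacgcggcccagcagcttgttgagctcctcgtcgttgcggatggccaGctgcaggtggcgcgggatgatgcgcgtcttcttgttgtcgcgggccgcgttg
Gm44313: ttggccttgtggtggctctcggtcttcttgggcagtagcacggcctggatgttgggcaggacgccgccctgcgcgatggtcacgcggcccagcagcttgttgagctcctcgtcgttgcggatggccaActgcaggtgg
Gm44346 (chr13:21786875-21787015, plus strand, 141 bases) lies inside Hist1h2an, and 9 of the 51 genes, Hist1h2ap and Hist1h2aj among them, hold its whole complement. Gm44313 (chr11:58954983-58955120, minus strand, 138 bases) lies inside Hist3h2a, the only member that holds its whole complement.

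Gm44346 had 472 and 192 TPM in LCP D10, against 14640 and 7484 TPM in LCP D0, and 377.5 and 707 TPM in sorted LCP D10, against 9048 and 25340 TPM in sorted LCP D0. The highest value, in replicate 2 of sorted LCP D0, was 2.53% of that library's TPM. Its differences were -5.12 (SE 0.90, adjusted p = 0.00580 by limma) in unsorted and -4.87 (SE 0.90, adjusted p = 0.00268 by limma) in sorted cells, without overlap of the groups. Against the summed TPM of the 51 genes, Gm44346 alone stood at 0.362 to 1.04 times in the 4 day 10 libraries and at 8.67 to 12.1 times in the 4 day 0 libraries. TPM divides by length, and how the authors' tool corrected the length of such short entries is not given. Gm44313 had 906 and 1149 TPM in LCP D10, against 183 and 233 TPM in LCP D0, and 2232 and 2494 TPM in sorted LCP D10, against 419 and 173 TPM in sorted LCP D0. It was higher at day 10 in both (2.30, SE 0.59, adjusted p = 0.0361 and 3.13, SE 0.59, adjusted p = 0.00299 by limma). The entry opposite Hist2h2aa2, Gm47311, was also higher (3.11, adjusted p = 0.0146 in unsorted and 3.95, adjusted p = 0.00143 in sorted cells by limma), and Gm44390, opposite Hist1h2ah, was lower (-7.76, adjusted p = 0.00412 and -6.09, adjusted p = 0.00530 by limma). Gm44341, on chromosome 13 opposite the pseudogene Hist1h2al, had the same values as Gm47311 in every library. Hist2h2aa1 and Hist2h2aa2 hold the whole complement of both entries. The values of Gm44341 therefore cannot be assigned to its own place on chromosome 13.

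When these entries were added to the H2A sum, an alternative chosen after seeing the data, the sum became 4866 and 5961 TPM in sorted LCP D10, against 15960 and 41140 TPM in sorted LCP D0. In unsorted cells it became 2442 and 2550 TPM in LCP D10, against 25290 and 13200 TPM in LCP D0. The level of H2A mRNA in TPM therefore depended heavily on whether the entries were counted, while the differences kept their direction, at -2.87 (adjusted p = 0.00409) for unsorted and -2.25 (adjusted p = 0.00534) for sorted cells by limma, against -2.54 and -1.74 without them.

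**Figure D5:**
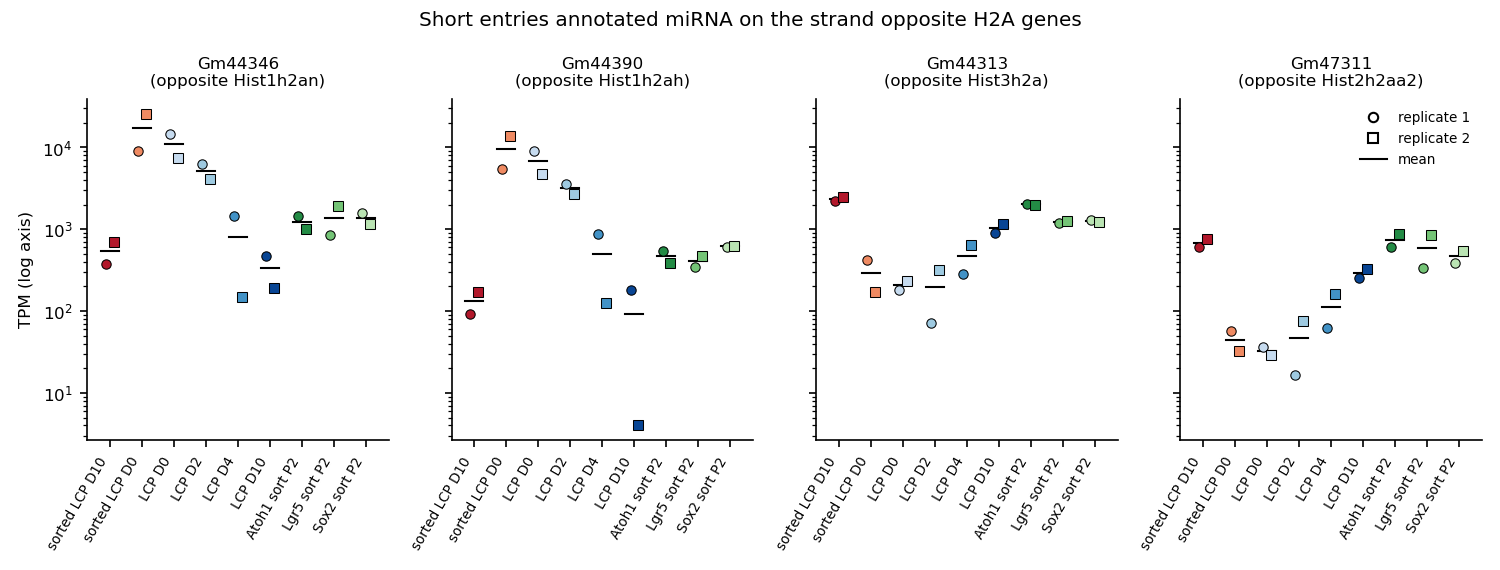
TPM (log axis) in each of the 18 libraries of 4 short entries annotated miRNA on the strand opposite to H2A genes, with circles for replicate 1, squares for replicate 2 and a line for the mean. Gm44346 and Gm44390, opposite chromosome 13 genes, are lower at day 10 than at day 0, and Gm44313 and Gm47311, opposite chromosome 11 and 3 genes, are higher, in both sorted and unsorted LCP.

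Genes that fell and genes that rose stood in each of the sequence classes described above. Among the 28 genes with fewer than 50% of windows shared, 9 fell and 3 rose in sorted LCP D10 against sorted LCP D0, and 4 fell and 1 rose in LCP D10 against LCP D0. Among the 23 with more windows shared, 8 fell and 2 rose in sorted cells, and 5 fell and 2 rose in unsorted cells. Of the 11 genes with a poly(A) signal in the last 50 bases, 2 fell and 2 rose in sorted cells, and the 40 others gave 15 and 3. Median differences in sorted cells were -0.36 for those 11 genes and -1.09 for those 40. Of all genes, limma called 10.7% lower and 13.3% higher in sorted cells, and 4.34% lower and 3.05% higher in unsorted cells. These classes describe the genes and were not tested against each other.

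Members moved in opposite directions with promoters that share motifs, and 4 stretches are shown to set them side by side. RefSeq (GRCm38.p6) gives a promoter, from 250 bases before to 50 after the start, for 45 of the 51 genes. Stretches are 5' to 3' on the strand given, with 3 motifs in capitals. The TATA motif is TATAAA, which reads TTTATA when it lies on the other strand. The CCAAT motif reads ATTGG when it lies on the other strand. The octamer is ATTTGCAT, which is seen as ATGCAAAT when it lies on the other strand. None of the 3 contains another.
Hist1h2ap, chr13:21833508-21833707, minus strand: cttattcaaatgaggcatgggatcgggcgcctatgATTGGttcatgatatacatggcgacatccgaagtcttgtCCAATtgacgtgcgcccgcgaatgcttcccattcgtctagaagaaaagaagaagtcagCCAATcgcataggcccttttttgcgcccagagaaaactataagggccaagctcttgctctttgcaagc
Hist3h2ba, chr11:58948711-58948910, plus strand: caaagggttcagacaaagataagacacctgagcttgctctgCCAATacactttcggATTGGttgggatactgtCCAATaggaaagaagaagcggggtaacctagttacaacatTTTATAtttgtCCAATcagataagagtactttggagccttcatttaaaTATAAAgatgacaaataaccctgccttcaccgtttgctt
Hist1h2ae and Hist1h2bg, chr13:23571221-23571395, minus strand: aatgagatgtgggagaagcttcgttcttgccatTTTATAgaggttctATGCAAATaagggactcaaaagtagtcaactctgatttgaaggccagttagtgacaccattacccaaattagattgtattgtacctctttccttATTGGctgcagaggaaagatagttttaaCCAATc
Hist3h2bb-ps and Hist3h2a, chr11:58954513-58954684, plus strand: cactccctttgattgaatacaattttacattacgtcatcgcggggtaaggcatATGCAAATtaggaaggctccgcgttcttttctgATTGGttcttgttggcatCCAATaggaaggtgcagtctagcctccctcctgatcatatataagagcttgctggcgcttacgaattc
The Hist1h2ae and Hist3h2a stretches lie between the starts of divergent H2A and H2B genes, of which there are 7 pairs among the 51. CCAAT, on either strand, stood in 84.4% of the 45 promoters, against 37.4% of 32544 RefSeq promoters of the same length, TATAAA in 55.6%, against 13.6%, and the octamer in 20% (9 of 45), against 1.75%. The 9 with an octamer were 5 H2A and 4 H2B genes. The promoters of divergent partners overlap, so the same site can be counted for both genes in these shares. CCAAT was found in all H1, H2A, H2B and H3 promoters but in 2 of 9 H4 promoters. Both Hist1h2ap, which fell, and Hist3h2ba, which rose in sorted cells, hold CCAAT, and both the Hist1h2ae and the Hist3h2a stretch hold an octamer. A match is a description of these letters and not a measured binding site.

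Genes that act with histones were taken from 4 lists. Of all genes, limma called 4.34% lower in LCP D10 against LCP D0 and 10.7% in sorted LCP D10 against sorted LCP D0. It called 2.29% lower in LCP D4 against LCP D0, and 3.85% higher in sorted LCP D0 against the Lgr5 sort. Of 19 S phase genes 18 fell in LCP D10 against LCP D0, 18 fell in sorted LCP D10 against sorted LCP D0, and 17 fell in LCP D4 against LCP D0. None rose, and 17 were higher in sorted LCP D0 than in Lgr5-sorted cells. Uhrf1, a replication-coupled methylation factor, had means of 1.62 TPM in LCP D10 and 52.6 TPM in LCP D0 (difference -4.37, adjusted p = 0.000155 by limma), followed by Rrm2 (-4.33) and Tk1 (-3.67), which supply nucleotides, and the helicase subunit Mcm5 (-3.69). Cdc6, which loads that helicase, did not pass (-1.62, adjusted p = 0.0599 by limma). Of 16 histone chaperones 7 fell in LCP D10 against LCP D0, 9 in sorted LCP D10 against sorted LCP D0 and 4 in LCP D4 against LCP D0, and none rose. They included Mcm2 (-3.61), Asf1b (-3.36) and the chromatin assembly factor subunits Chaf1a (-2.60) and Chaf1b (-2.54), while Rbbp4, the most abundant, had means of 184 TPM in LCP D10 and 166 TPM in LCP D0.

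Of 20 genes of histone transcription and 3' processing that were tested, 4 fell in LCP D10 against LCP D0, 8 in sorted LCP D10 against sorted LCP D0 and 2 in LCP D4 against LCP D0, and none rose. The 4 were the S phase transcription factor E2f1 (-2.63, adjusted p = 0.000794 by limma), cyclin E2 gene Ccne2 (-1.90), Casp8ap2 (-1.49) and Srrt (-1.38). Slbp, for the stem-loop binding protein, had means of 64.3 TPM in LCP D10 and 112 TPM in LCP D0, and its difference of -0.77 (SE 0.38) did not pass (adjusted p = 0.279 by limma). In sorted cells Slbp fell to a mean of 39.1 TPM in sorted LCP D10, against 114 TPM in sorted LCP D0 (difference -1.52, SE 0.38, adjusted p = 0.0122 by limma). Of 11 replacement and variant histones 1 fell in LCP D10 against LCP D0, Cenpa, the centromeric H3, with means of 2.72 TPM in LCP D10 and 76.1 TPM in LCP D0 (difference -4.38, adjusted p = 0.000403 by limma). H3f3b, which encodes H3.3, had means of 2008 TPM in LCP D10 and 1294 TPM in LCP D0 (difference 0.60, SE 0.35, adjusted p = 0.385 by limma). Hist1h3i had a mean of 0.592 TPM in LCP D10. Priming on poly(A) is expected to see mRNAs that end at the stem-loop poorly, so these 2 levels cannot be compared directly. In sorted cells 8 of the 11 fell, among them H2afz, for H2A.Z, with means of 439.5 TPM in sorted LCP D10 and 1682 TPM in sorted LCP D0. H3f3a and H3f3b did not pass there (-0.47 and -0.30). Among the named calls in LCP D10 against LCP D0, E2f1, Cenpa, Mcm2, Asf1b, Chaf1a, Uhrf1, Rrm2, Mcm5 and Tk1 were kept without any 1 of the 4 libraries, and Ccne2, Casp8ap2, Srrt and Chaf1b were not.

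Across the 18 libraries, which fall into the same 9 groups, the genes most like the mean of the 51 by Pearson correlation of log2(TPM + 1) were Polr2i (r = 0.872), Ndufaf2 (0.863), Gm10355 (0.843), Pole2 (0.840) and Dnajc9 (0.836). Hist1h2ap correlated with Hist1h2aj at 0.947, with Hist1h2ae at 0.944 and with Hist1h1b at 0.872, and at -0.684 with Hist3h2ba, -0.762 with Hist2h2aa2 and -0.798 with Hist3h2a. These values describe 18 libraries that share 9 groups and, for copies of H2A, shared sequence.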

How the data were processed

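Processed RNA-seq values of 18 mouse libraries, 2 in each of 9 groups, were used. The values are TPM per gene as the authors deposited them, 1 table a library, each summing to 1000000 over 47729 identifiers. Per the labels' protocols, RNA came from RNeasy Micro columns, cDNA was made from 2.5 ng with SMARTer V4, and single 75-base reads were sequenced. Per the submitters' processing notes, STAR, Salmon, FastQC and DESeq2 were used, with mm10; versions, the annotation and the tool that made the TPM values are not stated there or in the labels. Read depth is unknown, so no counting intervals or floors were given.

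Names, transcripts and coordinates came from GENCODE M21 (47224 identifiers matched, 505 not) and promoters from RefSeq on GRCm38.p6. Genes at 1 TPM or more in at least 2 libraries, 20463 in all, were tested on log2(TPM + 1) with limma 3.58.1 in R 4.3.3: group means in 1 fit of all 18 libraries, empirical Bayes with a trend, Benjamini-Hochberg adjustment and a threshold of 0.05. The fit had 9 residual and 2.8 prior degrees of freedom; the method was tested on simulated data. An exact two-sided permutation test of 2 against 2 libraries cannot give a p below 0.333. Python 3.11.15, pandas 2.3.3 and numpy 2.4.6 were used for the rest.

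The members and the gene lists were chosen with earlier results of these data known. Named genes are, per comparison, the 6 largest differences among called genes whose libraries do not overlap, the 2 most abundant genes of each family, the 4 most abundant not called in LCP D10 against LCP D0, every gene called against the majority direction, up to 4 called genes of each list with its most abundant gene not called, and the 5 genes most like the members' mean; other genes were named to complete a count. Alternatives changed the pseudocount, the low-value filter, the scaling, the trend and the groups fitted, added the replicate number as a block, or left out each library.

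Replicate 2 of all groups was sequenced on a single date and replicate 1 on others, so LCP D10 and LCP D0 share a sequencing date in replicate 2 only. Replicate 2 of the unsorted and of the sorted LCP cultures carries a single extraction date. Same-numbered libraries of the unsorted cultures were extracted on the same day, per the labels. Their deviations from the group means correlated over all genes at 0.483 for LCP D0 with LCP D2, 0.411 with LCP D4 and 0.211 with LCP D10, and at 0.143 between the sorted LCP groups; over all 36 pairs of groups the range was -0.0187 to 0.483. For 7 libraries the labelled extraction date follows the sequencing date.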

Additional observations from a re-analysis of the deposited data

Results flagged for a closer look

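The change of Hist1h3a, an H3 gene, over 10 days differed between sorted and unsorted LCP by -1.72 on the log2(TPM + 1) scale (adjusted p = 0.0492 by limma, 1 of the 51 histone genes). Both replicate pairs had this direction, at -1.62 for replicate 1 and -1.82 for replicate 2. Hist1h3a reached the minimum of 1 TPM only through the sorted LCP D0 libraries, which enter this difference. The result was lost in 12 alternatives, with adjusted p-values of 0.00392 to 0.307 over all of them.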

How the results depend on the processing

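Of 83 named differences that were called, 34 stayed called in every fit without 1 library and 11 in every alternative. The counts of called histone genes were less stable; the cause of each move was not tested unless stated. With only the groups compared in the fit, which has fewer libraries to estimate the spread from, the counts were 0 for LCP D4 against LCP D0, LCP D10 against LCP D0, sorted LCP D0 against LCP D0, sorted LCP D0 against the Lgr5 sort, the Lgr5 sort against the Sox2 sort, and the difference between the changes. A filter of 5 TPM in 2 libraries, which tests fewer genes, gave 4 for LCP D4 against LCP D0, 10 for sorted LCP D10 against sorted LCP D0, 8 for sorted LCP D0 against the Lgr5 sort, and 0 for sorted LCP D0 against LCP D0, for the Lgr5 sort against the Sox2 sort and for the difference between the changes. No filter gave 4 for LCP D4 against LCP D0 and 2 for the Lgr5 sort against the Sox2 sort. A pseudocount of 0.1 or 0.5 gave 0 for sorted LCP D0 against LCP D0 and for the difference between the changes, and 0.5 also gave 0 for the Lgr5 sort against the Sox2 sort. Scaling by the median of ratios gave 1 for sorted LCP D10 against LCP D10 and 0 for the difference between the changes, and moved the median of all genes from -0.11 to 0.09 for sorted LCP D10 against the Atoh1 sort and from -0.12 to 0.01 for sorted LCP D0 against LCP D0. Without the trend the difference between the changes gave 0.

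With the replicate block, the pairing by replicate number gave 0 for the difference between the changes and changed no other count by over 1.5 times (8 for LCP D4 against LCP D0, 13 for LCP D10 against LCP D0, 23 for sorted LCP D10 against sorted LCP D0).

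Leaving out 1 library gave 0 to 5 for LCP D4 against LCP D0, 2 to 11 for LCP D10 against LCP D0, 13 to 18 for sorted LCP D10 against sorted LCP D0, 9 to 17 for sorted LCP D0 against the Lgr5 sort, 1 for sorted LCP D10 against the Atoh1 sort, 0 to 2 for sorted LCP D0 against LCP D0, sorted LCP D10 against LCP D10, the Lgr5 sort against the Sox2 sort and the difference between the changes, and 0 to 1 for LCP D4 against LCP D2 and for Atoh1-sorted against the other native cells. For LCP D10 against LCP D0, which were not called, the range was -2.49 to 0.12 for Hist1h2bc, -1.09 to 3.86 for Hist1h2al and -1.09 to 2.73 for Hist1h1c, so their direction turned with the replicate of LCP D10 left out. A lone library was assumed to vary like the other groups.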
